A study of Mus musculus with 14 samples.

Results

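The collagen genes were taken as the protein-coding rows of the deposited count table whose symbol has the form Col, a number, a, a number. This rule found 44 genes of the 17927 in the table. They are all 44 of the protein-coding collagen genes in the GENCODE M21 annotation of the mouse genome GRCm38. Each of the 44 had at least 7 counts in every brain, and 41 had a mean of at least 1 CPM (the usual scaled count, relative to the total of its library) over all brains. No member was left out of the test.

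The counts come from RNA-SEQ of whole brains of mice on a C57BL/6J background, frozen at postnatal day 2 (P2). There were 7 WT brains and 7 Capn15 KO brains from 6 litters, and no brain was treated. The Capn15 KO mice were bred to lack Capn15, a calpain protease of the small optic lobe family. The methods describe a lacZ-Neo line and a floxed Capn15 line, and the labels do not say which of them gave these brains. The column names of the table give the litter (A to F) and the sex. A WT and a Capn15 KO brain with the same number came from the same litter, and litter B gave 4 brains. The WT group held 2 females and 5 males and the Capn15 KO group 4 females and 3 males. The total count per brain lay between 37620954 and 70910163. Capn15 itself lay between 25.0 and 27.3 CPM in WT 1 to 6 and between 12.2 and 14.5 CPM in Capn15 KO 1 to 6. In litter F it was at 18.7 CPM in the library labelled WT 7 and at 20.2 CPM in the library labelled Capn15 KO 7. Counts were made over the whole gene, so they do not show which exons were lost. The levels of litter F go against its labels, so results are given with and without it where they differ. The labels name neurons as the cell type, but the tissue was whole brain. Summed markers of leptomeningeal fibroblasts (11 of 11 measured) lay between 287.6 and 348.6 CPM, of endothelial cells (9 of 9) between 286.6 and 364.0 CPM, and of choroid plexus epithelium (9 of 9) between 629.8 and 1007 CPM. Neuron markers (5 of 5) summed to 4337 to 4649 CPM.

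Collagens are extracellular matrix proteins in which chains wind into a triple helix. The chains are modified by hydroxylases in the endoplasmic reticulum, trimmed and cross-linked outside the cell, and then assemble in different ways. Fibrillar collagens form cable-like fibrils, network collagens form sheets such as those of basement membranes, FACIT collagens sit on the surface of fibrils, and transmembrane collagens are anchored in the cell membrane. In the brain, collagens are found mainly in the meninges and in the basement membranes of blood vessels and the pial surface, while the neural tissue itself holds little fibrillar collagen.

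4 upstream sequences are shown because the results below turn on their genes. Col8a1 and Col8a2 encode both chains of collagen VIII, and they had the lowest p-values of the 44 in the comparison of genotypes. Col4a5 and Col4a6 lie head to head, and of 12 pairs of partner chains they had the highest correlation across brains before litter and sex effects were subtracted. The sequences are from RefSeq (GRCm38.p6) and end before the first annotated base of the gene. Of the 44 collagen genes 35 have an entry in that table. Each is written from 5′ to 3′ on the strand of the gene. Capitals mark matches, on either strand, to the GC box GGGCGG, to the CAAT box CCAAT and to the TATA box TATAAA.
Col8a1: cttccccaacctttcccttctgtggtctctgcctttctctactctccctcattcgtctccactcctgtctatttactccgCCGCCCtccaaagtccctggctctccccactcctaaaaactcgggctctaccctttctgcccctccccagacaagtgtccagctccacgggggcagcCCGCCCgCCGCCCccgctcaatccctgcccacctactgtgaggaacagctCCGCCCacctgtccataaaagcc
Col8a2: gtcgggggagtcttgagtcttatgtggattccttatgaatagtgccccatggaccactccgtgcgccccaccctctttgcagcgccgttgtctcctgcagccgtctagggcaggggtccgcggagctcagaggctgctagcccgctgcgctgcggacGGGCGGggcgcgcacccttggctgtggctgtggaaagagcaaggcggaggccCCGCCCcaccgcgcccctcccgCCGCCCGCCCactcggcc
Col4a5: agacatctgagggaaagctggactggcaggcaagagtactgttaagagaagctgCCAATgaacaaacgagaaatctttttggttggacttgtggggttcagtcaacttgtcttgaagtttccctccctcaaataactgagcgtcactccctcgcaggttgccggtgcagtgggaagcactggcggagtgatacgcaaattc
Col4a6: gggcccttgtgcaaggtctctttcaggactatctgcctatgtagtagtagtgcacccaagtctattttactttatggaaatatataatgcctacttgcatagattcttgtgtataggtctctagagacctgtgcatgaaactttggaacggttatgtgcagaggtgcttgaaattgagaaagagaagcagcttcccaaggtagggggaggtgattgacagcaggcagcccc

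The Col8a1 stretch is chr16:57754738-57754987 on the minus strand, and the Col8a2 stretch is chr4:126286544-126286792 on the plus strand. Each held the GC box 4 times, and a pair of the matches in Col8a2 overlap. Of 32851 promoters in the table, 32.7% held this motif in a stretch as long as that of Col8a1 and 32.6% in one as long as that of Col8a2. The Col4a5 stretch is chrX:141475169-141475369 on the plus strand and held 1 CAAT box, which 28.6% of promoters held at that length. The Col4a6 stretch is chrX:141474096-141474326 on the minus strand and held none of the 3 motifs. In stretches of that length 29.97% of promoters held the GC box, 32.3% the CAAT box and 11.8% the TATA box. GC content was 60.8% for Col8a1, 69.9% for Col8a2, 49.8% for Col4a5 and 45.5% for Col4a6, against a mean of 53.2% over all promoters. The shares over all promoters are for as many bases from the 5′ end of each 250-base entry. At the shorter lengths they therefore leave out the bases of an entry nearest the gene. These matches describe the letters only.

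The 44 genes together took 0.153% of all counts in WT brains and 0.149% in Capn15 KO brains. Their summed level was 1531 ± 87.6 CPM (SD, n = 7) in WT and 1490 ± 83.9 CPM in Capn15 KO, and the ranges overlapped (1358 to 1625 and 1400 to 1629 CPM). To compare genes, CPM was divided by the length in kilobases of the transcript with the longest coding sequence. On this scale the levels in WT ran from 42.7 ± 2.09 CPM per kilobase for Col4a1 to 0.104 ± 0.0286 for Col17a1. The 10 highest were Col4a1, Col3a1, Col1a2, Col4a2, Col25a1, Col26a1, Col9a3, Col6a1, Col9a2 and Col1a1. Many neighbours in this order could not be told apart: for 25 of 43 neighbouring pairs the gap was smaller than the larger of the 2 SDs. When the union of all exons was used as the length, 8 of the 10 stayed among the 10 highest, and Col25a1 moved from place 5 to 14 and Col26a1 from place 6 to 11.

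**Figure D1:**
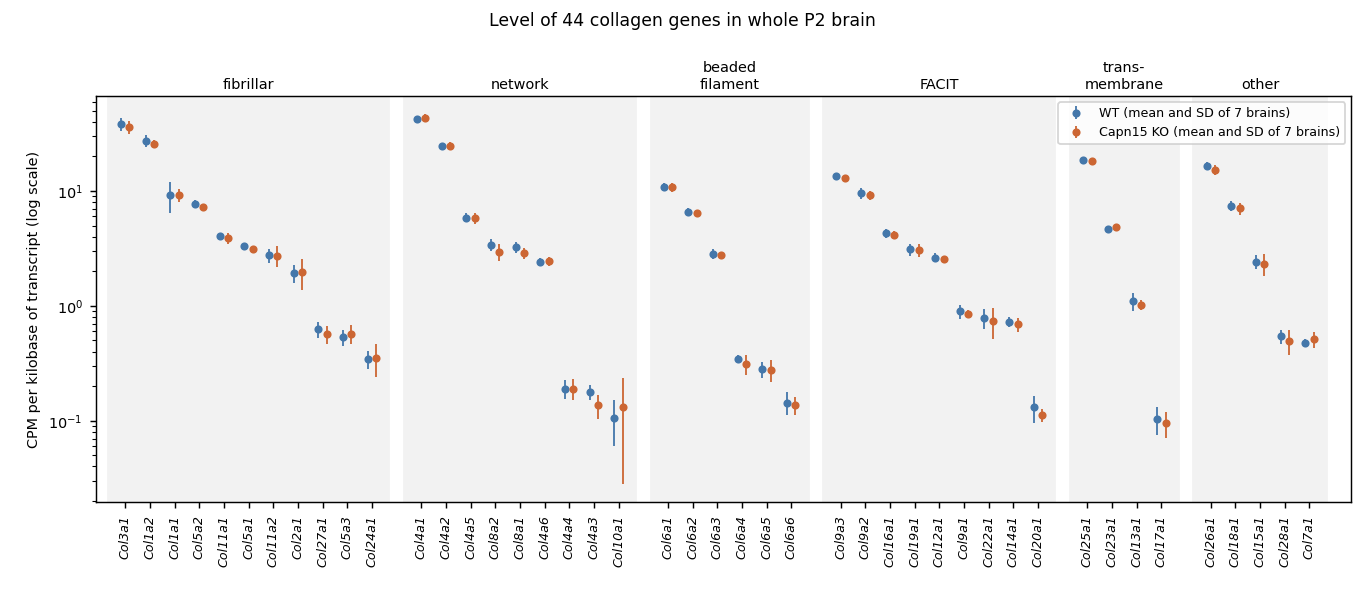
Level of each of the 44 collagen genes in WT (blue) and Capn15 KO (orange) brains, grouped by structure. The vertical axis is CPM per kilobase of transcript on a log scale, and points and bars are the mean and SD of 7 brains. Col4a1 (42.7 CPM per kilobase in WT) is the highest gene, and the WT and Capn15 KO points of most genes lie on each other within their bars.

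Among the fibrillar collagens, the type I and III chains of connective tissue stood highest. Col3a1, whose chain forms the homotrimer of collagen III and is a known ligand of the receptor Adgrg1 at the pial surface, was at 38.4 ± 5.01 CPM per kilobase in WT and 35.98 ± 4.68 in Capn15 KO (SD, n = 7). In CPM it lay between 164.9 and 242.9 in WT (median 216.2) and between 172.6 and 248.6 in Capn15 KO (median 190.1). Col1a2, the second chain of collagen I, lay between 114.2 and 171.1 CPM in WT (median 148.5) and between 126.8 and 158.3 CPM in Capn15 KO (median 133.5). The genotypes overlapped over most of their range for both genes. Col1a1, which gives the other chain of collagen I, was more spread: 36.2 to 81.1 CPM in WT (median 49.4) and 42.03 to 62.8 CPM in Capn15 KO (median 57.1). Its coefficient of variation was 30.6% in WT and 12.5% in Capn15 KO, against 11.8% and 7.89% for Col1a2. The minor fibrillar genes Col27a1, Col5a3 and Col24a1 lay below 0.7 CPM per kilobase.

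Among the network collagens, Col4a1 and Col4a2, which encode the chains of the collagen IV found in nearly all basement membranes, were far above the rest. Col4a1 lay between 257.8 and 300.7 CPM in WT (median 280.5) and between 260.7 and 313.9 CPM in Capn15 KO (median 289.8). Col4a2 lay between 150.2 and 171.0 CPM in WT (median 159.8) and between 138.6 and 178.1 CPM in Capn15 KO (median 159.2). Col4a5 and Col4a6, chains of other basement membrane networks, were at 5.87 ± 0.506 and 2.42 ± 0.209 CPM per kilobase in WT. Col4a3 and Col4a4, best known from the kidney glomerulus, were at 0.178 ± 0.0258 and 0.189 ± 0.0353 CPM per kilobase, and these neighbours in the order were not separated by their spread. Col10a1, the collagen of hypertrophic cartilage, was at 0.106 ± 0.0460 CPM per kilobase. Col8a2 and Col8a1 were at 3.40 ± 0.382 and 3.23 ± 0.332 CPM per kilobase and were not separated either.

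Collagen VI forms beaded filaments from chains that include those of Col6a1, Col6a2 and Col6a3. Col6a1 lay between 37.2 and 48.5 CPM in WT (median 44.8) and between 38.8 and 49.1 CPM in Capn15 KO (median 44.1). Col6a2 lay between 22.3 and 27.6 CPM in WT (median 26.7) and between 24.0 and 27.8 CPM in Capn15 KO (median 24.8). Col6a4, Col6a5 and Col6a6 were below 0.4 CPM per kilobase.

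Of the FACIT collagens, the type IX chains Col9a3 and Col9a2 stood highest. Collagen IX is best known from cartilage, where it decorates collagen II fibrils. Col9a3 lay between 39.2 and 45.3 CPM in WT (median 40.2) and between 35.8 and 42.4 CPM in Capn15 KO (median 39.5). Col9a2 lay between 23.4 and 32.3 CPM in WT (median 27.6) and between 24.3 and 29.8 CPM in Capn15 KO (median 26.0). Per kilobase, Col9a3 was at 13.4 ± 0.722 and Col9a1, the remaining chain, at 0.897 ± 0.122. In the same brains the 4 measured of 7 cartilage markers summed to only 4.34 to 7.94 CPM and the 3 measured of 6 bone markers to 2.11 to 3.12 CPM. Col9a3 shares 234 exonic bases with Tcfl5 on the opposite strand, and whether the authors counted by strand is not given in the sources used here.

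Of the transmembrane collagens, Col25a1, which is made by neurons, and Col23a1 stood highest. Their order depends on the length used: Col25a1 was at 18.6 and Col23a1 at 4.68 CPM per kilobase in WT on the transcript with the longest coding sequence, and at 3.76 and 4.62 on the union of all exons. Col25a1 lay between 46.2 and 52.0 CPM in WT (median 47.9) and between 44.3 and 51.2 CPM in Capn15 KO (median 48.3). Col23a1 lay between 24.6 and 28.9 CPM in WT (median 26.0) and between 25.6 and 30.02 CPM in Capn15 KO (median 27.9). Their coefficients of variation in WT, 4.70% and 5.23%, were among the 4 lowest of the 44, with those of Col4a2 (4.43%) and Col4a1 (4.89%). Of the remaining genes, Col26a1, which encodes a secreted protein with an EMI domain, was at 16.5 ± 1.35 CPM per kilobase. Col18a1, the basement membrane collagen that gives rise to endostatin, was at 7.47 ± 0.765, and it lay between 34.8 and 46.8 CPM in WT (median 42.1) and between 33.3 and 45.3 CPM in Capn15 KO (median 39.4).

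The comparison of Capn15 KO with WT asks which mRNAs depend on Capn15. With litter and sex in the model, no collagen gene passed a false discovery rate (FDR) of 0.05 in the quasi-likelihood test of edgeR. Over all 17927 genes 1 passed, which is 0.00558%. 5 collagen genes had an unadjusted p under 0.05: Col8a2, Col8a1, Col4a3, Col26a1 and Col28a1. All 5 were lower in Capn15 KO. Over all genes 5.14% had such a p, 2.26% with a lower and 2.88% with a higher level. The fitted log2 difference was negative for 33 of the 44 collagen genes, against 48.6% of all genes, and its median was -0.07 against 0.00 over all genes. Some collagen genes varied together across brains, so these are not 44 independent observations, and the list was given no test. In bulk tissue, fewer cells of a type and less RNA per cell cannot be told apart.

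**Figure D2:**
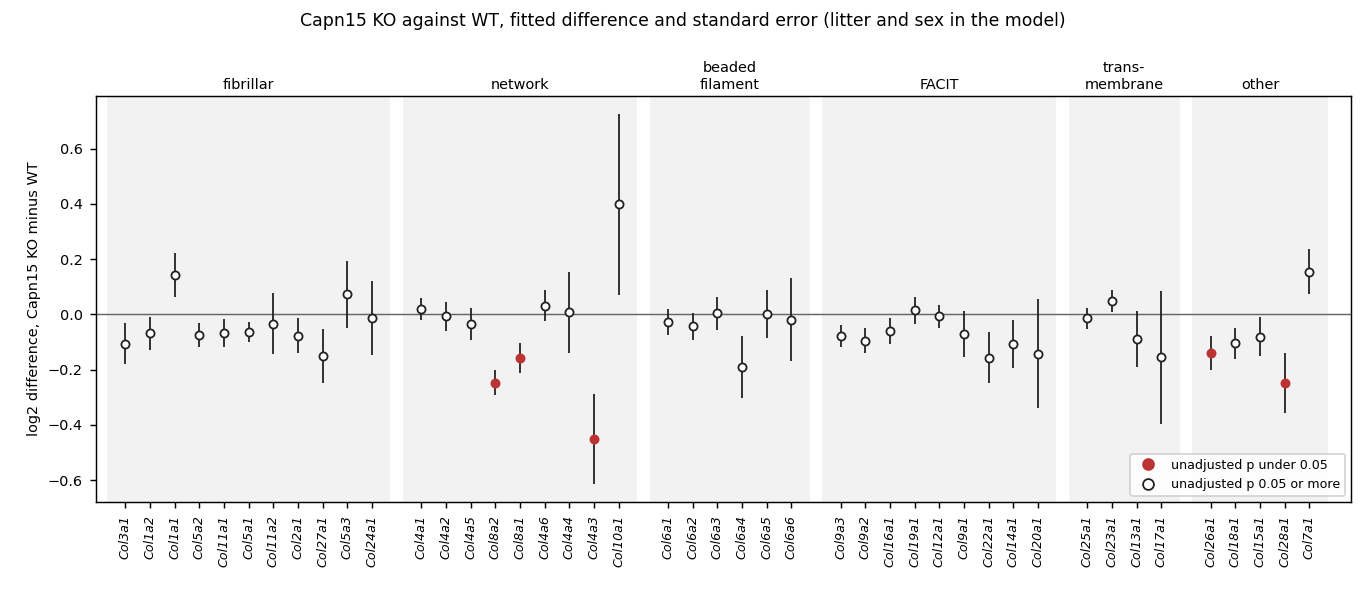
Fitted log2 difference between Capn15 KO and WT (vertical axis) for each collagen gene, with its standard error as a bar. Red points mark the 5 genes with an unadjusted p under 0.05, which all lie below 0, from -0.14 for Col26a1 to -0.45 for Col4a3. Col10a1 has the widest bar and the largest positive value (0.40), which was -0.00152 without litter F.

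The count held up differently under other fits. DESeq2 called 0 collagen genes, with 4 at an unadjusted p under 0.05 (3.21% of all genes), and limma-voom called 0, with 5 (5.22%). The likelihood ratio test of edgeR called 34 genes in all, or 0.19%, and 1 of them was a collagen gene, Col8a2. Without litter F the quasi-likelihood test called 0 collagen genes and 7 had an unadjusted p under 0.05, where 3.74% of all genes did. Of the 7, 6 were lower, against 1.92% of all genes, and 1 was higher, against 1.82%. Without the library labelled WT 5 or without Capn15 KO 5, the number with an unadjusted p under 0.05 was 11, and the share over all genes was 8.04% and 8.08%. In pair 5 the median difference over the 44 genes was 0.08 on the log2 scale, while in the other 6 pairs it lay between -0.18 and -0.04. With genotype alone in the model 1 collagen gene had an unadjusted p under 0.05 (1.45% of all genes), and with genotype and sex 2 (1.47%).

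Col10a1 had the largest positive difference, and it rests on litter F. It lay between 0.127 and 0.429 CPM in Capn15 KO 1 to 6, at 1.10 CPM in the library labelled Capn15 KO 7 and between 0.174 and 0.626 CPM in WT. The fitted log2 difference was 0.40 ± 0.33 (SE), with an unadjusted p of 0.244 in edgeR's quasi-likelihood test, and -0.00152 without litter F. It was 0.85 without WT 4 or without Capn15 KO 4.

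Col8a2 (ENSMUSG00000056174, chr4:126286793-126314330, 4 exons on the plus strand) was the collagen gene with the lowest p. Collagen VIII is a short-chain network collagen known from the corneal Descemet membrane and from blood vessel walls. Col8a2 lay between 13.0 and 17.2 CPM in WT (median 14.05) and between 10.2 and 16.6 CPM in Capn15 KO (median 12.1). The groups overlapped, but within each of the 7 same-numbered pairs the Capn15 KO brain was the lower one. The pairs were 13.0 and 11.9, 16.2 and 14.6, 17.2 and 16.6, 15.7 and 12.1, 13.1 and 10.2, 13.8 and 12.9, and 14.05 and 11.5 CPM, with WT first and in the order 1 to 7. Of all genes 0.597% were lower in 7 of 7 pairs, and Col8a2 was the only one of the 44. In litter B, the source of pairs 2 and 3, brains are matched by number only. There Capn15 KO 3 (16.6 CPM) was above WT 2 (16.2 CPM), so the count depends on the numbering. The fitted log2 difference was -0.25 ± 0.04 (SE), with an unadjusted p of 6.49e-05 and an adjusted p of 0.166 in edgeR's quasi-likelihood test. In the likelihood ratio test its adjusted p was 0.00122. Without litter F the quasi-likelihood difference was -0.24 with an adjusted p of 0.274. An exact permutation test of the 7 against 7 log2 levels, which takes no account of litter, gave p = 0.0775 (two-sided). The study lists Col8a2 among its changed mRNAs from these same samples, so its direction here is not independent evidence.

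Col8a1 (ENSMUSG00000068196, chr16:57624258-57754737, 4 exons on the minus strand) encodes the partner chain. It lay between 14.2 and 18.8 CPM in WT (median 15.998) and between 12.9 and 16.9 CPM in Capn15 KO (median 14.1). The groups overlapped, and the Capn15 KO brain was lower in 6 of 7 pairs. The fitted log2 difference was -0.16 ± 0.05 (SE), with an unadjusted p of 0.0120 and an adjusted p of 0.784. Without WT 5 or without Capn15 KO 5 it was -0.09, with an unadjusted p of 0.162 in edgeR's quasi-likelihood test. The log2 ratio of Col8a1 to Col8a2 was 0.17 ± 0.25 (SD) in WT and 0.21 ± 0.29 in Capn15 KO.

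Most choroid plexus markers were also fitted lower in Capn15 KO (8 of 9 measured, against 48.6% of all genes). In edgeR's quasi-likelihood test 6 of the 9 were lower at an unadjusted p under 0.05 (2.26% of all genes) and 1 higher (2.88%). Of these markers 0 passed the FDR. Their sum lay between 767.0 and 1007 CPM in WT and between 629.8 and 875.3 CPM in Capn15 KO, and in 7 of 7 pairs it was lower in Capn15 KO. Most of that sum is Ttr, the thyroid hormone carrier of the choroid plexus, with 846.1 ± 74.1 CPM in WT and 679.5 ± 84.2 CPM in Capn15 KO (adjusted p = 0.0942). Without litter F, 5 of the 9 markers were lower at an unadjusted p under 0.05 (1.92% of all genes), and 1 passed the FDR. Leptomeningeal fibroblast markers held 3 of 11 lower at an unadjusted p under 0.05 and 0 higher. Their sum was lower in Capn15 KO in 6 of 7 pairs, and the groups overlapped (287.6 to 348.6 CPM in WT and 292.0 to 312.5 CPM in Capn15 KO). Endothelial markers had 1 of 9 higher and mural cell markers 1 of 9 lower. The part of these cell types in the collagen differences was not tested.

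Col4a3 (ENSMUSG00000079465, chr1:82586921-82722059, plus strand) had the largest of the 5 differences but few reads, between 41 and 92 counts per brain. It lay between 1.14 and 1.75 CPM in WT (median 1.61) and between 0.825 and 1.57 CPM in Capn15 KO (median 1.30). It was lower in 6 of 7 pairs, with overlapping groups. The fitted log2 difference was -0.45 ± 0.16 (SE), with an unadjusted p of 0.0146 and an adjusted p of 0.797. Its head-to-head neighbour Col4a4, whose chain joins the same trimer, lay between 1.51 and 2.55 CPM in WT (median 1.78) and between 1.45 and 2.38 CPM in Capn15 KO (median 1.73). The fitted difference of Col4a4 was 0.01 ± 0.15, and its sign turned in 7 of 24 other fits, among them the fit without litter F (-0.08). The fits without WT 7 or Capn15 KO 7 also turned, and they are nearly the same fit as that one. The log2 ratio of Col4a3 to Col4a4 was -0.33 ± 0.32 (SD) in WT and -0.74 ± 0.29 in Capn15 KO. Col4a3 shares 563 exonic bases with C430014B12Rik on the opposite strand.

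**Figure D3:**
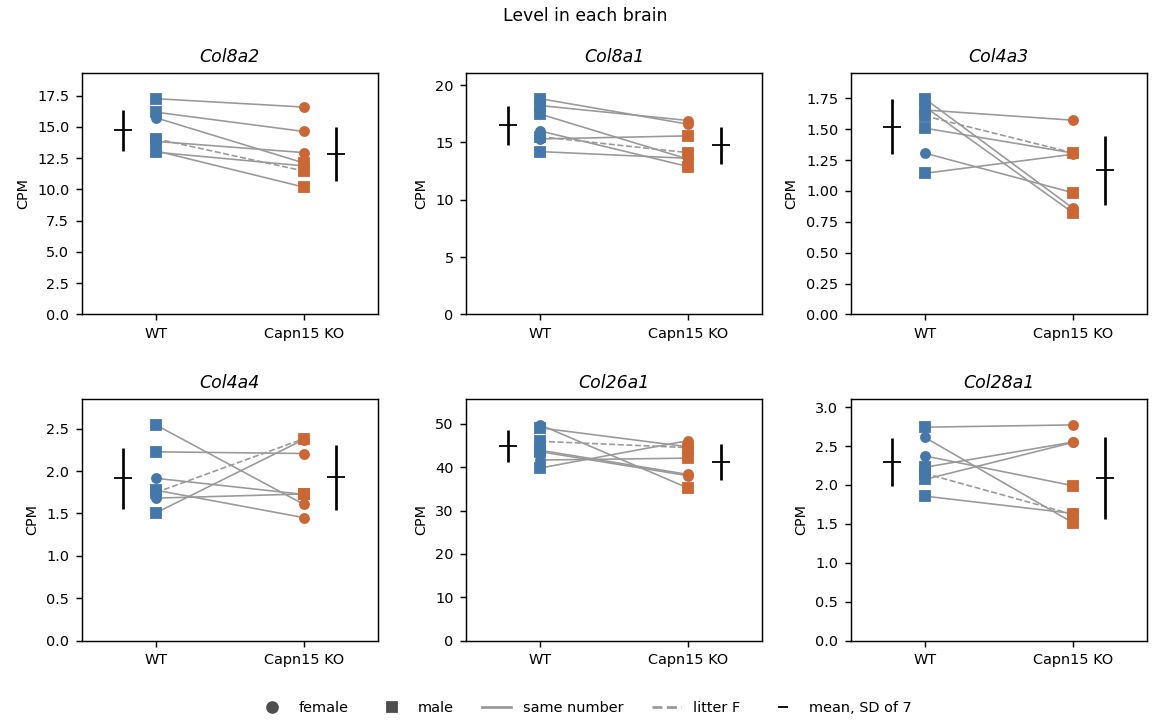
Level in CPM (vertical axis, from 0) of 6 collagen genes in each brain, with lines joining same-numbered brains of 1 litter (dashed for litter F) and the mean and SD of 7 beside each genotype. Circles are females and squares males, and in litter B, with 4 brains, the lines join by number only. All 7 lines of Col8a2 fall from WT to Capn15 KO and 6 of 7 lines of Col8a1 and of Col4a3 do, while the lines of Col4a4 cross.

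Col26a1 (ENSMUSG00000004415, chromosome 5) lay between 39.8 and 49.8 CPM in WT (median 43.9) and between 35.2 and 46.1 CPM in Capn15 KO (median 42.1). It was lower in 5 of 7 pairs, and the groups overlapped. The fitted log2 difference was -0.14 ± 0.06 (SE), with an unadjusted p of 0.0383 and an adjusted p of 0.954. Pairs 4 and 5 moved it most: without WT 4 or Capn15 KO 4 it was -0.03 (unadjusted p = 0.565 and 0.564 in edgeR's fit), and without WT 5 or Capn15 KO 5 -0.23. Col28a1 (ENSMUSG00000068794, chromosome 6), whose protein is known from peripheral nerve, lay between 1.86 and 2.74 CPM in WT (median 2.23) and between 1.52 and 2.77 CPM in Capn15 KO (median 1.99). It was lower in 4 of 7 pairs only. Its fitted log2 difference was -0.25 ± 0.11. It was -0.24 with genotype and sex in the model, -0.14 with genotype alone and -0.16 without WT 5 or Capn15 KO 5.

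3 more genes had the next lowest p-values. Col9a2 (-0.09 ± 0.04, SE) and Col9a3 (-0.08 ± 0.04) were fitted lower, with adjusted p of 0.971 and 0.994. Without WT 4 or Capn15 KO 4 the differences were -0.05 and -0.02, and without WT 5 or Capn15 KO 5 they were -0.16 and -0.14. Col7a1, the anchoring fibril collagen, was fitted higher by 0.16 ± 0.08. It lay between 3.90 and 4.77 CPM in WT (median 4.65) and between 3.69 and 5.71 CPM in Capn15 KO (median 5.06). None of the 3 differences passed the FDR, and each group overlapped the other.

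Each structural group held some negative differences, where 48.6% of all genes had one, and the groups are small. They were 9 of 11 fibrillar, 5 of 9 network, 4 of 6 collagen VI, 8 of 9 FACIT, 3 of 4 transmembrane and 4 of 5 other genes. The group medians lay between -0.10 for the other genes and -0.01 for the network genes. The most abundant chains differed little: Col4a1 by 0.02 ± 0.04, Col4a2 by -0.01 ± 0.05, Col3a1 by -0.11 ± 0.07 and Col1a2 by -0.07 ± 0.06 on the log2 scale (SE). For 40 of the 44 genes the 95% interval of the difference lay within 0.5 of 0 on the log2 scale. The exceptions were Col4a3, Col10a1, Col17a1 and Col20a1, which are among the 5 genes with the lowest level per kilobase.

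The genes that make, bind and degrade collagen were also compared. Over all genes 5.14% were under 0.05 before adjustment in edgeR's quasi-likelihood test. Of 34 biosynthesis and processing genes, all measured, this test passed 0 at the FDR, and only Fkbp10 was under 0.05 before adjustment. It is a prolyl isomerase that acts as a collagen chaperone, and it was at 23.9 ± 1.74 CPM in WT and 22.3 ± 2.16 CPM in Capn15 KO (log2 difference -0.13 ± 0.05 (SE), adjusted p = 0.933). The next lowest were Pcolce, an enhancer of procollagen C-proteinase (-0.15 ± 0.08), and P4ha1, a prolyl 4-hydroxylase subunit (0.06 ± 0.03). Of 12 receptor genes 11 were measured, and 0 passed either threshold. Ddr2, a receptor tyrosine kinase for fibrillar collagen, had the lowest p of them (-0.08 ± 0.04, adjusted p = 0.986), followed by the integrin subunits Itga10 (-0.17 ± 0.11) and Itga2 (-0.16 ± 0.11). Of 10 degradation genes 8 were measured, 0 passed the FDR, and Timp3 alone was under 0.05 before adjustment. It encodes a matrix-bound inhibitor of metalloproteinases and was at 85.2 ± 4.62 CPM in WT and 78.8 ± 6.63 CPM in Capn15 KO (-0.12 ± 0.04, adjusted p = 0.805). Timp2 (0.05 ± 0.02) and the cysteine protease Ctsk (0.13 ± 0.08) came next. Median log2 differences were -0.01 for biosynthesis, -0.01 for receptors and -0.05 for degradation. The degradation list holds the inhibitors Timp1, Timp2 and Timp3 as well as proteases, so its median has no direction for degradation itself.

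More collagen genes passed the test between litters than between genotypes, as did more of all genes (29.6% against 0.00558%). In the quasi-likelihood test of 6 litters 10 of the 44 genes passed the FDR, a smaller share than the 29.6% of all genes. The 10 were Col2a1, Col8a2, Col15a1, Col22a1, Col1a1, Col19a1, Col6a5, Col9a2, Col16a1 and Col8a1. Litter is known only as a letter in the column names, and whether brains of a litter also shared a day of dissection or library preparation was not given. Without litter F 12 collagen genes passed (27.5% of all genes), and without the library labelled WT 2, 6 did (20.2%). Of the 10, 6 passed in each of 19 other fits: Col2a1, Col8a2, Col15a1, Col22a1, Col1a1 and Col6a5.

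Litter B, with 4 brains, did not overlap the other litters for 3 of the 44 genes, Col2a1 above them and Col19a1 and Col6a5 below. Both shares were smaller than those over all genes, of which 7.45% lay above and 9.77% below. Col2a1, the fibrillar collagen of cartilage, was at 10.8 to 14.4 CPM in the 4 brains of litter B and at 6.96 to 10.2 CPM in the other 10 (adjusted p between litters 0.000339). Its mean was 13.2 ± 1.65 CPM (SD, n = 4) in litter B and 8.61 ± 0.859 CPM (n = 10) elsewhere. All 4 brains of litter B were thus above every other brain, as they were for 7.45% of all genes. Col22a1, a FACIT collagen known from tissue junctions such as that of muscle and tendon, was at 8.80 ± 0.869 CPM in litter B and 5.85 ± 0.966 CPM elsewhere (adjusted p = 0.00497, edgeR). Col8a2 was at 16.2 ± 1.11 CPM in litter B and 12.8 ± 1.54 CPM elsewhere (adjusted p = 0.00121). Its litter means ran from 11.6 CPM in litter D to 16.2 CPM in litter B.

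Other genes were lowest in litter B. Col19a1, a FACIT collagen made by some neurons, was at 10.7 to 11.98 CPM in litter B and at 12.8 to 16.2 CPM in the other brains (adjusted p = 0.0114). Col6a5 was at 1.86 to 2.12 CPM in litter B and at 2.44 to 3.34 CPM elsewhere (adjusted p = 0.0139). All 4 brains of litter B were below every other brain for both, as they were for 9.77% of all genes. Col15a1, a basement membrane collagen of the same family as Col18a1, was at 9.70 ± 1.07 CPM in litter B and 13.3 ± 1.47 CPM elsewhere (adjusted p = 0.00479). Summed red blood cell markers lay between 196.7 and 322.2 CPM in litter B and between 31.0 and 199.5 CPM in the other brains, and 5 of 5 of them passed the FDR between litters. The part of blood in the litter differences was not tested.

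Col1a1 followed another order. Its litter means were 65.6 CPM in litter A, 62.8 in B, 51.1 in C, 43.4 in D, 45.7 in E and 51.0 in F (adjusted p = 0.00683, edgeR). Col1a2, from the other chain of the same collagen, did not pass (adjusted p = 0.236). Col9a2 was highest in litter B and Col16a1 highest in litter F. Col8a1 was highest in litters E and A, with means of 17.7 and 17.6 CPM, while Col8a2 was highest in litter B.

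**Figure D4:**
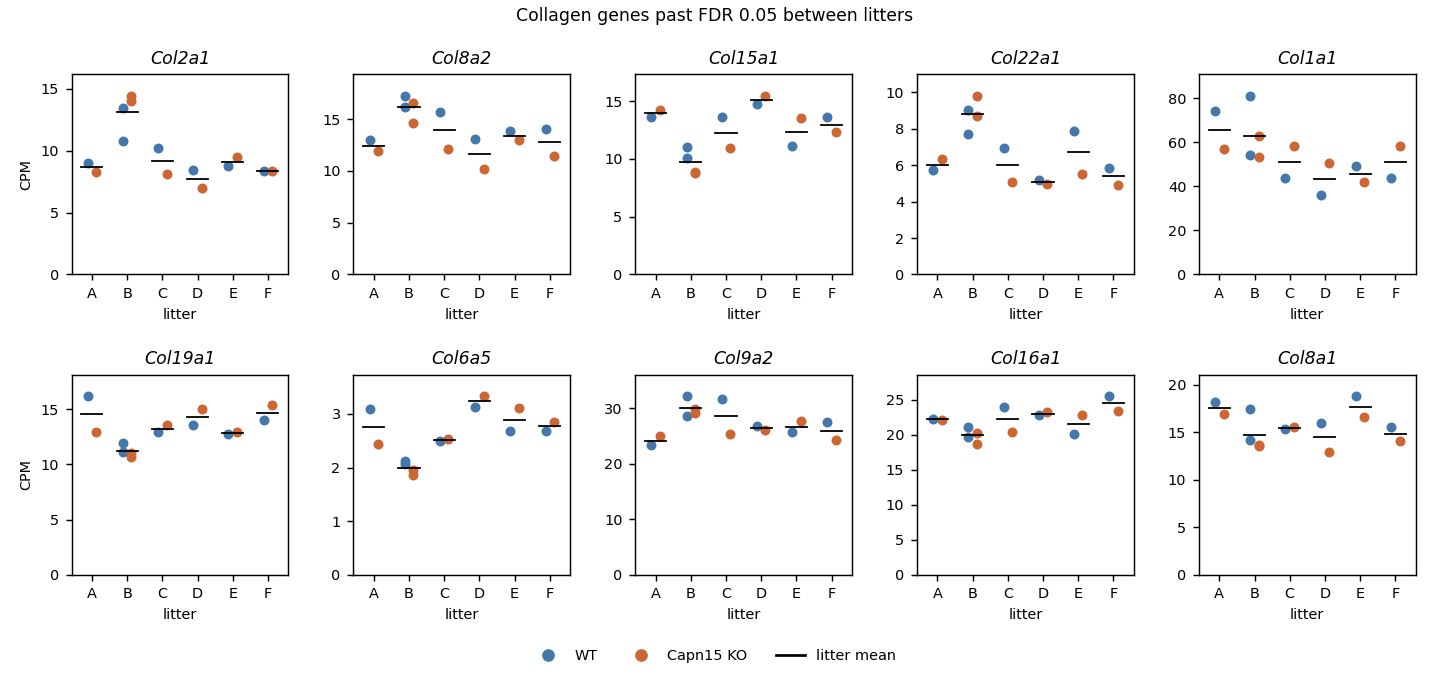
Level in CPM (vertical axes, from 0) of the 10 collagen genes that passed the FDR between litters, by litter (horizontal axes), with WT in blue, Capn15 KO in orange and black lines at the litter means. Litter B has 4 brains and the others 2. The litter B points are the highest for Col2a1 (10.8 to 14.4 CPM) and the lowest for Col19a1 and Col6a5.

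Sex was compared in the same model, with 6 females and 8 males. In the same test of edgeR 0 of the 44 collagen genes passed the FDR between sexes, where 0.0669% of all genes did, and 9 had an unadjusted p under 0.05, against 5.04% of all genes. Of the 9, 4 were lower in females (Col1a1, Col12a1, Col7a1 and Col19a1) against 2.63% of all genes, and 5 were higher (Col2a1, Col8a2, Col28a1, Col9a2 and Col9a3), against 2.41%. Col1a1 had the lowest p. It lay between 36.2 and 62.8 CPM in females (mean 49.2) and between 43.8 and 81.1 CPM in males (mean 58.7), and the sexes overlapped. Its fitted difference of females from males was -0.37 ± 0.09 on the log2 scale (adjusted p = 0.383). In the likelihood ratio test, which called 0.201% of all genes, its adjusted p was 0.0147. It also passed the quasi-likelihood test without the library labelled WT 2 (adjusted p = 0.0268). Most pairs of brains differed in sex as well as in genotype, so for each gene the fitted differences between genotypes and between sexes depend on each other. All of the 9 genes but Col12a1 had genotype and sex differences of opposite sign. For Col1a1 the genotype difference was 0.14 ± 0.08, and with genotype alone 0.00. For Col8a2 it was -0.25, and with genotype alone -0.20 (unadjusted p = 0.0569 in edgeR's quasi-likelihood test).

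Collagen chains that assemble together were then compared across the 14 brains, after subtraction of the genotype means from log2 CPM. Of 12 partner pairs, 5 were correlated at an adjusted p under 0.05 (permutation test, 100000 resamples, adjusted over the 12 pairs). Pairs of chains that do not assemble together were not compared, so these values do not show a trait particular to partners. The permutations took no account of litter. The closest pair was Col4a5 and Col4a6, with r = 0.89 and rho = 0.87 (permutation p of 3.00e-05 and 0.000140, adjusted p = 0.000360 for r). Col4a1 and Col4a2 gave r = 0.82 and rho = 0.77 (permutation p of 0.000400 and 0.00200, adjusted p = 0.00240 for r). Col6a1 and Col6a2 gave r = 0.76 and rho = 0.71 (permutation p of 0.00146 and 0.00569, adjusted p = 0.00584 for r). Col11a1 and Col11a2, minor fibrillar chains that share collagen XI, gave r = 0.72 and rho = 0.67 (permutation p of 0.00355 and 0.0102, adjusted p = 0.0106 for r). For these 4 pairs r stayed between 0.67 and 0.79 without the 2 brains farthest from the median of the first gene. Col1a1 and Col1a2 gave r = 0.72 (permutation p = 0.00455, adjusted p = 0.0109) but rho = 0.52 (permutation p = 0.0592). Without the 2 farthest brains its r was 0.36, so that the relation rests on them.

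The other 7 pairs did not pass. Col6a1 and Col6a3 gave r = 0.57 (adjusted p = 0.0647 by permutation). Col4a3 and Col4a4 gave r = 0.43, Col1a1 and Col3a1 0.28, Col5a1 and Col5a2 0.21, and Col9a1 and Col9a3 0.19. The values of Col8a1 and Col8a2 (-0.19) and of Col9a1 and Col9a2 (-0.43) were negative. For the chains of collagen VIII no positive relation within the genotypes was detectable with 14 brains.

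The pairs were also compared within litters. After litter and sex effects had also been subtracted, r was 0.96 for Col4a1 and Col4a2, 0.89 for Col4a5 and Col4a6, 0.84 for Col11a1 and Col11a2, 0.68 for Col6a1 and Col6a2, and 0.57 for Col1a1 and Col1a2. Within litters the permutations are few (768), and only Col4a1 and Col4a2 passed (adjusted p = 0.0469, exact permutation within litters). In the same test the adjusted p was 0.0625 for Col4a5 and Col4a6. It was 0.0573 for Col6a1 and Col6a2 and for Col11a1 and Col11a2, and 0.393 for Col1a1 and Col1a2. For Col8a1 and Col8a2 r turned to 0.25.

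The 3 collagen IV gene pairs lie head to head in the genome. Col4a1 and Col4a2 overlap by 22 bases at their starts on chromosome 8, Col4a3 and Col4a4 are 71 bases apart on chromosome 1, and Col4a5 and Col4a6 are 1308 bases apart on chromosome X. Their correlations were 0.82, 0.43 and 0.89. Col4a3 and Col4a4 had at most 103 counts in a brain, while each of the other 4 genes had at least 575, so the reads of Col4a3 and Col4a4 carry more counting error. The shared reads at the overlap of Col4a1 and Col4a2 are uncertain where strand was not used.

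**Figure D5:**
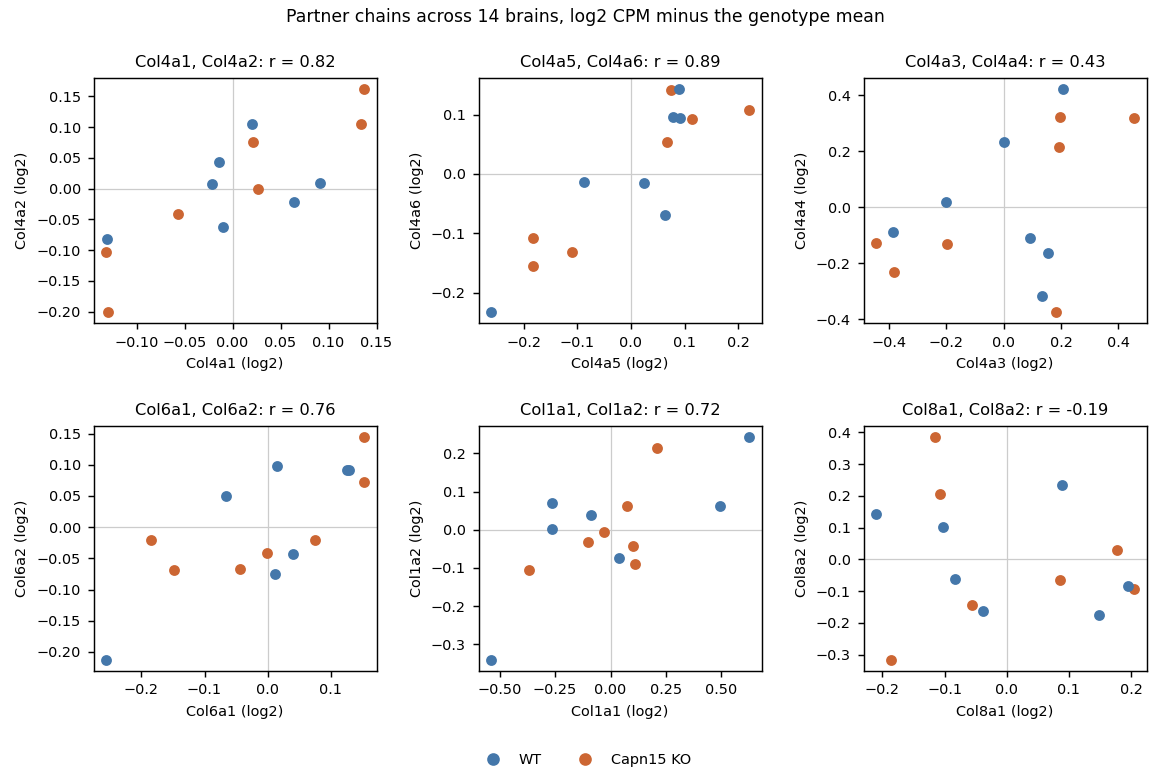
Log2 CPM minus the genotype mean for 6 pairs of collagen genes (horizontal axis the first gene, vertical axis the second), 1 point per brain, WT in blue and Capn15 KO in orange. Points of Col4a1 and Col4a2 and of Col4a5 and Col4a6 lie along a rising line (r = 0.82 and 0.89), and points of Col8a1 and Col8a2 do not (r = -0.19).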

How the data were processed

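RNA-SEQ counts of 14 whole P2 brains, 7 WT and 7 Capn15 KO, were analysed. The authors trimmed the reads with Trimmomatic, aligned them to GRCm38 with STAR and deposited whole-number counts per gene without normalization for 17927 genes. Their gene filter and strand setting, and the annotation release, are not given in the sources used here. The labels and the methods name different library kits and counting tools. Litter and sex came from the column names of the counts.

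Counts were tested in R 4.3.3 with edgeR 4.0.16 (quasi-likelihood test, TMM factors, litter, sex and genotype in the model) with Benjamini-Hochberg adjustment over all genes and an FDR of 0.05. This is the test behind every adjusted p in the text unless another is named. DESeq2 1.42.0, limma 3.58.1 (voom) and edgeR's likelihood ratio test were alternatives, as were other normalizations, filters and covariates and the removal of each library. CPM uses TMM factors, and log2 CPM a prior count of 2. Exact permutation tests ran over 3432 regroupings, with 0.000583 as the smallest p. Correlations and figures were made with scipy 1.17.1, numpy 2.4.6, pandas 2.3.3 and matplotlib 3.10.9. The genotype test of the full model was first run on simulated counts with both edgeR tests, DESeq2 and limma-voom. Those counts held no litter or sex effect, and the litter and sex tests and the other models were not simulated. Positions and lengths are from GENCODE M21, in which 17909 genes were found.

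The collagen members, the gene lists and the tests were chosen with earlier results of these data known. Genes named with values are Col8a2, the 8 members of at least 1 CPM with the lowest p, the 2 highest per kilobase in each structural group, partner chains, litter and sex genes, and from each pathway list the 3 genes with the lowest p. The replicate numbers pair brains because same-numbered brains share a litter, although within litter B (4 brains) the match is by number only. Their deviations from the genotype means correlated by 0.123 on average over 15227 genes (-0.467 to 0.443, above 0.1 in 4 of 7 pairs), against -0.0398 for brains of different litters. No pair of libraries agreed within sampling noise (lowest chi-square per gene 4.66). Separate brains of a genotype were the replicates. The union of exons as gene length, the ratios between partner genes, the list counts without litter F and the alternative fits of Col10a1 were chosen after seeing the data.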

Additional observations from a re-analysis of the deposited data

Results flagged for a closer look

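Over the 44 collagen genes, the gap in CPM between the highest or lowest brain and its nearest neighbour, divided by the range of the group, was compared with Dixon's critical value at 95% in 88 groups of 7 brains. 2 groups exceeded it, and chance alone would flag about 1 in 20 groups. Col10a1 was at 1.10 CPM in the library labelled Capn15 KO 7, and the next highest Capn15 KO brain was at 0.429 CPM (gap over range 0.690, and 0.464 on the log2 scale). Col27a1 was at 6.23 CPM in WT 5, and the next highest WT brain was at 4.94 CPM (gap over range 0.570, and 0.515 on the log2 scale).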

How the results depend on the processing

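The direction and the missed FDR of Col8a1, Col4a3, Col26a1, Col28a1, Col9a2, Col9a3 and Col7a1 were the same in each of 24 other fits of genotype, and so was the direction of Col8a2, which passed the FDR only in the likelihood ratio test (adjusted p = 0.00122). All genes past the FDR between genotypes numbered 1 in the reported fit, 34 in the likelihood ratio test, 17 in DESeq2, 0 with library totals, 0 with the replicate block and 7 without litter F, and they ranged from 0 to 7 when 1 library was left out. Collagen genes past it numbered 0, and 1 in the likelihood ratio test. Collagen genes with an unadjusted p under 0.05 numbered 5, but 1 with genotype alone, 2 with genotype and sex, 5 with the replicate block and 4 to 11 when 1 library was left out. The median log2 difference of the collagen genes was -0.07, -0.07 with the replicate block and -0.09 to -0.02 when 1 library was left out. The replicate block changed no call of a collagen gene. Col4a4 turned from 0.01 to -0.00362 with genotype alone, to -0.079 without litter F, and it ranged from -0.082 to 0.092 when 1 library was left out (below 0 without WT 3 or 7 or Capn15 KO 1, 3 or 7). Col1a1 turned from 0.14 to -0.000486 with genotype alone. Col10a1 turned from 0.40 to -0.00152 without litter F, and it ranged from -0.0045 to 0.85 when 1 library was left out (below 0 without WT 7 or Capn15 KO 7). Between litters 6 to 14 collagen genes passed when 1 library was left out (6 without WT 2), against 10. Between sexes 0 passed, but 1 did in the likelihood ratio test, and 0 to 1 when 1 library was left out (1 without WT 2). Of the partner pairs 5 passed, and 1 after subtraction of litter and sex effects, where only 768 permutations were possible. The cause of these changes was not tested. In a litter of 2 brains, leaving out 1 leaves no comparison of genotypes within that litter. The genotype fits without either brain are thus nearly the same and are not separate checks. For example, the median log2 difference was -0.0949 both without WT 5 and without Capn15 KO 5. The low genes Col4a3, Col4a4 and Col28a1 had at most 133 counts in a brain, which limits the differences that can be seen.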
